A study of Mus musculus with 18 samples.

Results

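Saa3, Lcn2, Serpina3n, Cp and Ptx3 are 5 mouse genes whose products belong to the acute-phase proteins and can be made in injured tissue as well as in the liver. They were selected by symbol from a table of read counts for 25731 gene symbols, with Saa3 included because it was among the largest rises after ischemia-reperfusion. All 5 had a row, and all 5 were among the 15088 symbols that passed the filter on low counts. The RNA came from hearts of adult male C57BL/6 mice labelled as wild type, taken on day 7 after surgery, with 1 library per animal and 6 animals in each of 3 groups. SHAM hearts had sham surgery, and IR hearts had myocardial ischemia followed by reperfusion. IR+Decursin hearts had that procedure as well and received decursin, a pyranocoumarin from Angelica gigas root that the study examined as a protective agent. No dose, route or timing of decursin and no surgical detail is given in the labels.

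The acute-phase response is the shift in secreted proteins that follows tissue damage or infection. Interleukin-6 acting through STAT3, and interleukin-1 and tumour necrosis factor acting through NF-kappaB and C/EBP factors, induce these genes in hepatocytes and also in macrophages, fibroblasts, endothelium and epithelium. Saa3 encodes serum amyloid A3, a lipid-binding protein made mainly outside the liver. Lcn2 encodes lipocalin-2, which binds the siderophores with which bacteria take up iron. Serpina3n encodes a secreted inhibitor of serine proteases such as granzyme B and leukocyte elastase, and Cp encodes ceruloplasmin, the copper-carrying ferroxidase that oxidises iron as it leaves cells. Ptx3 encodes the long pentraxin PTX3, a soluble pattern-recognition protein that binds complement C1q.

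Upstream sequences of 4 of the genes are given to show the letters that resemble sites of those factors. They are RefSeq windows of the mouse build GRCm38.p6, an older build than the GRCm39 named in the submitters' processing notes, so no coordinate of the deposited files is involved. Each runs 5′ to 3′ on the gene's own strand, from 250 bases before the start of transcription into the first bases of the transcript, 270 bases in all. Capitals mark matches to TTGCNNAA or TTGNNCAA, the letters of C/EBP sites, on either strand, and in Ptx3 also the matches to the stricter NF-kappaB consensus.
Saa3, chr7:46715657-46715926, minus strand: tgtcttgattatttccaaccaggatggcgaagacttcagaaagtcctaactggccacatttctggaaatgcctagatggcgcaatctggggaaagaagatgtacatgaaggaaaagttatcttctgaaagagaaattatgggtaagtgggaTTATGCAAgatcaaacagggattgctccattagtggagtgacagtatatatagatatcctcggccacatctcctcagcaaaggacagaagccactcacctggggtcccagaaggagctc
Lcn2, chr2:32387720-32387989, minus strand: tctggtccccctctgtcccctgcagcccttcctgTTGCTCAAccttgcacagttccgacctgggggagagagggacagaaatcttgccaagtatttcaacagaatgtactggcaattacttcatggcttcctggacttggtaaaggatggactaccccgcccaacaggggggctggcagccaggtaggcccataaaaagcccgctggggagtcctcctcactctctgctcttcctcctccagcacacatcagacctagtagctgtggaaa
Cp, second annotated start, chr3:19956999-19957268, plus strand: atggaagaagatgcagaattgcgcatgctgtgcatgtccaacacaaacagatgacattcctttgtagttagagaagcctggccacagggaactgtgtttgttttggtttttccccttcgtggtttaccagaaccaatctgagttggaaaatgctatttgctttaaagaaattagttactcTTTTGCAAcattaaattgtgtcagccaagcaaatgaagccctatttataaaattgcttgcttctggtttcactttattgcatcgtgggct
Ptx3, chr3:66219637-66219906, plus strand: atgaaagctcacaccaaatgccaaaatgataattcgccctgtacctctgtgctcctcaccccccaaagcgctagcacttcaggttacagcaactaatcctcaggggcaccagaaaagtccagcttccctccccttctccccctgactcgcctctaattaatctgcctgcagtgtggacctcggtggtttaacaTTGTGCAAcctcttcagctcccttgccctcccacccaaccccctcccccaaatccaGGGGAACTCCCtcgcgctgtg

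Of 32851 RefSeq mouse windows of 250 bases before to 50 after a start, 10.8% held TTGCNNAA and 6.40% held TTGNNCAA on either strand. The first form began at -99 in Saa3, -216 in Lcn2, -70 in the second Cp window and -57 in Ptx3, and in Lcn2 and Ptx3 the same 8 bases matched both forms. The stricter NF-kappaB consensus, held by 4.51% of windows, was found in the Ptx3 window alone among the genes described here, as 2 overlapping matches that start at -1 and 1. The looser NF-kappaB letters, 3 G, any 5 bases and 2 C, matched 50.8% of all windows and also matched in Lcn2, the second Cp window, Ptx3 and Serpina3n, in Serpina3n at 4 positions that overlap in pairs. The Serpina3n window held no C/EBP match, and TTCNNNGAA, the letters of a STAT site, was in 8.30% of all windows and in none of these. The AP-1 letters TGANTCA, in 7.81% of windows, occurred in the first Cp window only, and TATAAA, in 13.6%, occurred in the second Cp window only. These matches describe letters and are neither shown to be bound nor shown to act.

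The libraries held 27.5 to 35.0 M counts and 18435 to 20389 symbols with counts. Levels below are CPM, counts per 1 M counts of a library, after scaling by TMM factors, which adjust for the make-up of each library, and SDs are over the 6 libraries of a group. The labelled tissue carried cardiomyocyte markers in every library, at a summed 39970 to 87880 CPM for 10 genes. The labels also name 3 batches that coincide with the 3 groups, and batch and group therefore cannot be told apart. IR 3, IR 4 and IR+Decursin 2 had over 1000 counts of Xist, a transcript of the inactive X chromosome, and 0 of the Y-linked Ddx3y, against the male sex given in the labels. The gene model Gm26917 took 7.54% of counts in IR+Decursin 6 and 0.915% in IR 1, against at most 0.166% elsewhere. Differences between groups are given with and without these libraries below. Across all tested genes, 25.2% were higher and 21.7% lower in IR than in SHAM at a false discovery rate under 0.05 (edgeR quasi-likelihood test, Benjamini-Hochberg adjustment). That split of 3808 higher and 3269 lower genes became 7004 and 1057 when libraries were scaled by total counts alone.

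Saa3 was nearly silent in SHAM hearts and its level differed widely among injured hearts. In SHAM it ranged from 0 CPM in SHAM 6 through a median of 0.125 to 0.565 CPM in SHAM 3, and the 0 counts of SHAM 6 allow a level of up to 0.103 CPM (3 counts; counting error only). In IR the lowest library was IR 6 at 6.49 CPM, the median was 97.5 CPM and the highest was IR 4 at 471 CPM. In IR+Decursin the lowest was IR+Decursin 6 at 0.272 CPM, the median 44.2 CPM and the highest IR+Decursin 4 at 156 CPM. All 6 IR libraries and 5 of 6 IR+Decursin libraries lay above every SHAM library, and IR+Decursin 6 lay inside the SHAM range. The group means were 0.195 ± 0.208 in SHAM, 183 ± 204 in IR and 56.2 ± 61.9 CPM in IR+Decursin (SD, n = 6). The SD was as large as the mean in each group, with a coefficient of variation of 106%, 111% and 110%. Within IR the highest library exceeded the lowest 72.6-fold, from 237 to 18337 raw counts, and within IR+Decursin 574-fold, from 7 to 5535 counts.

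Lcn2 was present at a low level in SHAM and higher in most injured hearts. It ranged from 1.28 to 8.43 CPM in SHAM (median 2.87), with SHAM 2 and SHAM 5 above the other 4. In IR it ranged from 4.37 CPM in IR 3 through a median of 56.6 to 86.3 CPM in IR 4. In IR+Decursin it ranged from 2.99 CPM in IR+Decursin 6 through a median of 35.4 to 40.9 CPM in IR+Decursin 3. IR 3 fell inside the SHAM range and the other 5 IR libraries lay above it, and in IR+Decursin 4 of 6 lay above it. The means were 4.01 ± 2.80, 56.4 ± 29.8 and 26.7 ± 18.1 CPM in SHAM, IR and IR+Decursin (SD, n = 6).

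Serpina3n had the highest IR mean of the 5 genes in CPM, a scale that does not allow for transcript length. It ranged from 13.7 to 61.5 CPM in SHAM (median 18.8), and again SHAM 2 and SHAM 5 were the highest. In IR the range was 69.3 CPM in IR 3 to 468 CPM in IR 5, with a median of 344. In IR+Decursin it was 34.6 CPM in IR+Decursin 6 to 340.0 CPM in IR+Decursin 4, with a median of 219.7. No IR library and 1 IR+Decursin library, IR+Decursin 6, overlapped SHAM. The means were 31.0 ± 22.9, 329 ± 143 and 199.9 ± 121 CPM in the order SHAM, IR and IR+Decursin (SD, n = 6).

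Cp had the highest SHAM mean of the 5 genes in CPM, which does not allow for transcript length. It had the smallest coefficient of variation in each group. It ranged from 114 to 157 CPM in SHAM (median 124), from 140.2 in IR 3 to 263 CPM in IR 2 (median 213), and from 136 in IR+Decursin 2 to 224 CPM in IR+Decursin 1 (median 177). IR 3 among the IR libraries, and IR+Decursin 2 and 5, lay within the SHAM range. The means were 131 ± 17.6, 214 ± 46.1 and 177 ± 35.4 CPM in SHAM, IR and IR+Decursin (SD, n = 6), and coefficients of variation were 13.4%, 21.5% and 20.0%. Cp overlaps Hps3 on the opposite strand and no source used here states whether counting kept strand, so shared reads cannot be told apart. Hps3 averaged 13.1, 15.9 and 13.8 CPM in the 3 groups, far under Cp.

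Ptx3 had the lowest level of the 5 in IR and in IR+Decursin. It ranged from 0.350 to 1.05 CPM in SHAM (median 0.554), from 2.78 in IR 3 to 14.5 CPM in IR 2 (median 9.56), and from 0.864 in IR+Decursin 5 to 10.7 CPM in IR+Decursin 3 (median 3.60). All 6 IR libraries lay above SHAM, whereas IR+Decursin 5 and IR+Decursin 6 lay within it. The means were 0.619 ± 0.264, 9.01 ± 4.05 and 4.70 ± 4.10 CPM in SHAM, IR and IR+Decursin (SD, n = 6). Ptx3 overlaps Veph1 on the other strand, which had at most 2 counts in any library.

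**Figure D1:**
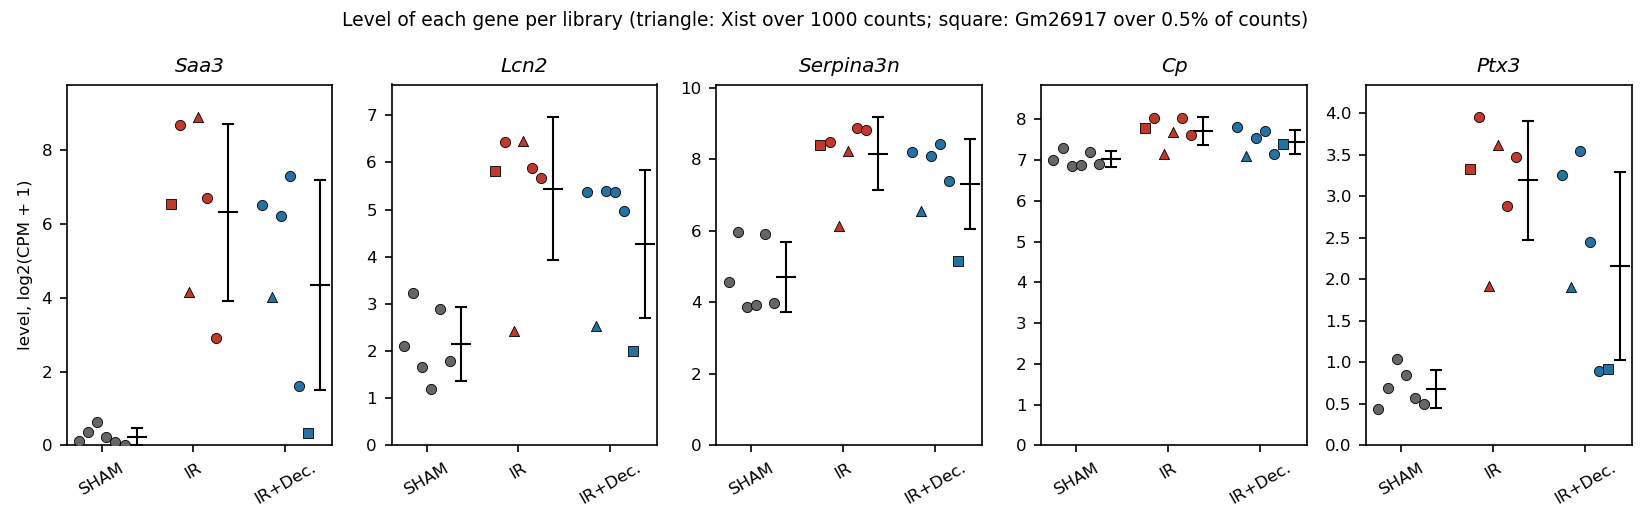
Level of each gene as log2(CPM + 1) in every library of SHAM, IR and IR+Decursin (IR+Dec.), with the group mean and SD to the right of the points. Triangles are the 3 libraries with over 1000 Xist counts and squares the 2 with much Gm26917; vertical scales differ between panels and start at 0. The SHAM points form a low cluster for Saa3 and Ptx3, while the IR+Decursin points of Saa3 run from the SHAM level to 156 CPM.

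The fitted log2 difference of IR minus SHAM was 9.91 ± 1.78 for Saa3 (SE; 15 residual degrees of freedom), 3.86 ± 0.63 for Ptx3, 3.81 ± 0.78 for Lcn2, 3.41 ± 0.63 for Serpina3n and 0.71 ± 0.15 for Cp. These are given as a description without a test, since the genes were selected on this contrast. As ratios of mean CPM they came to 937 for Saa3, 14.55 for Ptx3, 14.1 for Lcn2, 10.6 for Serpina3n and 1.64 for Cp. The Saa3 value rests on 31 SHAM counts in all: it was 10.53 without SHAM 3, the SHAM library with the most counts, and 6.96 on a log2(FPKM + 1) scale. On that scale Ptx3, at 2.15, came below Serpina3n at 3.67 and Lcn2 at 3.60. Without the 3 Xist libraries the values were 9.64 for Saa3, 4.01 for Ptx3, 3.94 for Lcn2, 3.69 for Serpina3n and 0.85 for Cp, and 5777 genes were called over the whole table in place of 7077. Without the 2 Gm26917 libraries they were 10.02, 3.83, 3.78, 3.37 and 0.67, with 7219 genes called. Cp was 1.02 when libraries were scaled by total counts alone, a scaling that moved the median of all genes from -0.00 to 0.31. In RNA of whole hearts, a change in the number of cells of a type and a change in RNA per cell cannot be told apart.

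Against IR, IR+Decursin means were lower for all 5 genes, and none of the 5 passed the test. The percentage of all tested genes called in this comparison was 0.0, with 2711 of 15088 at an unadjusted p under 0.05, so a lack of calls is no property of these 5. The ratios of mean CPM were 0.307 for Saa3, 0.473 for Lcn2, 0.522 for Ptx3, 0.607 for Serpina3n and 0.828 for Cp. The fitted log2 difference was -1.70 ± 1.08 for Saa3 (SE; 95% interval -4.0 to 0.59; edgeR quasi-likelihood test, adjusted p = 0.414). It was -1.08 ± 0.68 for Lcn2 (-2.52 to 0.36, edgeR adjusted p = 0.411) and -0.93 ± 0.52 for Ptx3 (-2.03 to 0.18, edgeR adjusted p = 0.355). For the protease inhibitor Serpina3n it was -0.72 ± 0.57 (-1.93 to 0.49, edgeR adjusted p = 0.520), and for the ferroxidase Cp -0.27 ± 0.15 (-0.58 to 0.03, edgeR adjusted p = 0.324). Every interval includes 0 and also includes markedly lower levels, so the data neither show a difference nor show that the groups are alike. In counts of libraries, 5 of 6 IR+Decursin hearts lay under the IR median for Saa3, Cp and Ptx3 and 6 of 6 for Lcn2 and Serpina3n, while 3 of 6 lay under every IR heart for Ptx3, 2 for Saa3 and 1 for each of the others. The comparison shares the IR libraries with the contrast on which the genes were selected, in which IR was high.

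Removing the libraries that stand apart left these 5 without a call. Without the 3 libraries with Xist counts, the IR+Decursin minus IR difference was -1.24 for Saa3, -0.99 for Lcn2, -0.96 for Ptx3, -0.86 for Serpina3n and -0.34 for Cp, and 0 of 5 were called. Without the 2 libraries with Gm26917, it was -1.58 for Saa3, -0.85 for Lcn2, -0.71 for Ptx3, -0.49 for Serpina3n and -0.24 for Cp, again with 0 of 5 called. The number of genes called over the whole table was less steady: leaving out IR+Decursin 1 gave 976, leaving out IR+Decursin 4 gave 2, and DESeq2 gave 470 on all libraries. None of the 5 genes was among these calls, and without IR+Decursin 4 the Saa3 difference was -2.34 (edgeR adjusted p = 0.277).

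IR+Decursin hearts still stood above SHAM in all 5 genes, each of which passed the test, in a comparison where 17.5% of tested genes were called higher. Over all genes that comparison called 2647 higher and 1774 lower, or 4780 and 377 with total-count scaling, under which the 5 genes were called as well. The fitted log2 difference was 8.20 ± 1.75 for Saa3 (SE; 95% interval 4.49 to 11.91; edgeR adjusted p = 0.00311), with 5 of 6 hearts above every SHAM heart. It was 2.93 ± 0.62 for Ptx3 (1.63 to 4.24, edgeR adjusted p = 0.00252), with 4 of 6 above, and 2.73 ± 0.75 for Lcn2 (1.13 to 4.33, edgeR adjusted p = 0.0134), also with 4 of 6 above. Serpina3n differed by 2.69 ± 0.61 (1.40 to 3.98, edgeR adjusted p = 0.00439) and 5 of 6 hearts lay above SHAM. Cp differed by 0.44 ± 0.15 (0.13 to 0.74, edgeR adjusted p = 0.0288), with 4 of 6 above. The SHAM libraries are shared with the contrast on which the genes were selected, and the comparison is therefore not independent of that choice. The Cp call was lost when any of SHAM 1, 3, 4 or 6 or IR+Decursin 1, 3 or 4 was left out, with differences of 0.36 to 0.43 and edgeR adjusted p from 0.05303 to 0.0784. With limma voom and library weights Saa3 (7.87, adjusted p = 0.282) and Lcn2 (2.85, adjusted p = 0.0819) were no longer called. All 5 remained called without the Xist libraries (log2 differences of 8.40, 3.05, 2.95, 2.84 and 0.51 for Saa3, Ptx3, Lcn2, Serpina3n and Cp) and without the Gm26917 libraries (8.44, 3.12, 2.94, 2.88 and 0.43).

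**Figure D2:**
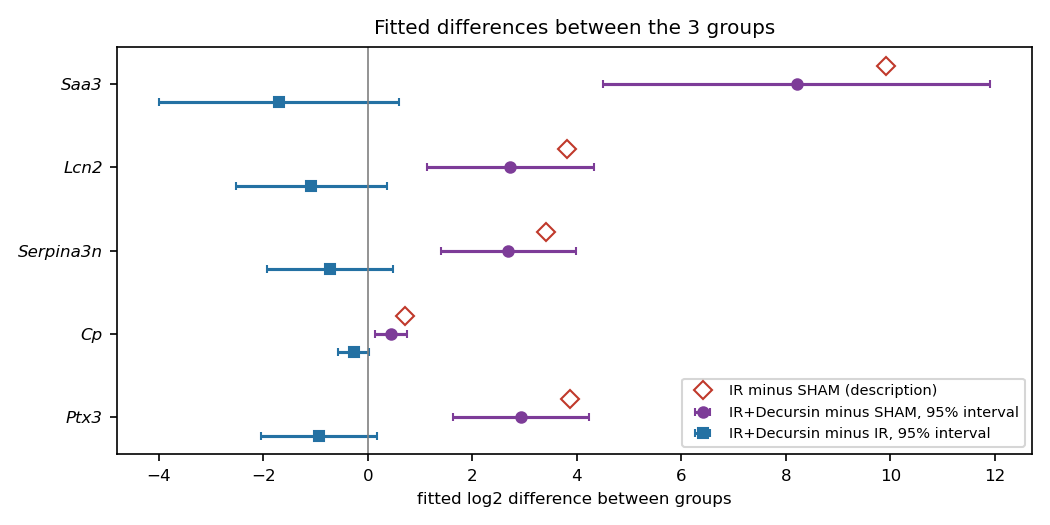
Fitted log2 difference between groups for each gene, as IR minus SHAM (open diamonds, without interval because the genes were selected on it), IR+Decursin minus SHAM (circles) and IR+Decursin minus IR (squares), with 95% intervals over 18 libraries. The 5 squares lie left of 0 with intervals that include 0, and the 5 circles lie right of 0 with intervals that exclude it.

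The 5 genes did not rank the hearts identically. IR 3 was lowest or next to lowest in IR for all 5 genes, and IR 2 was among the highest pair for 4 of them. IR 6 was the lowest IR heart for Saa3 at 6.49 CPM and yet the next to highest for Serpina3n at 449 CPM. IR 4, highest for Saa3 and Lcn2, ranked 5 of 6 for Serpina3n at 302 CPM. In IR+Decursin, hearts 1 and 4 were among the highest pair for 4 genes, and heart 6 among the lowest pair for 4. Heart 5 held 30.4 CPM of Lcn2 and 167 CPM of Serpina3n but only 2.07 CPM of Saa3 and 0.864 CPM of Ptx3.

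**Figure D3:**
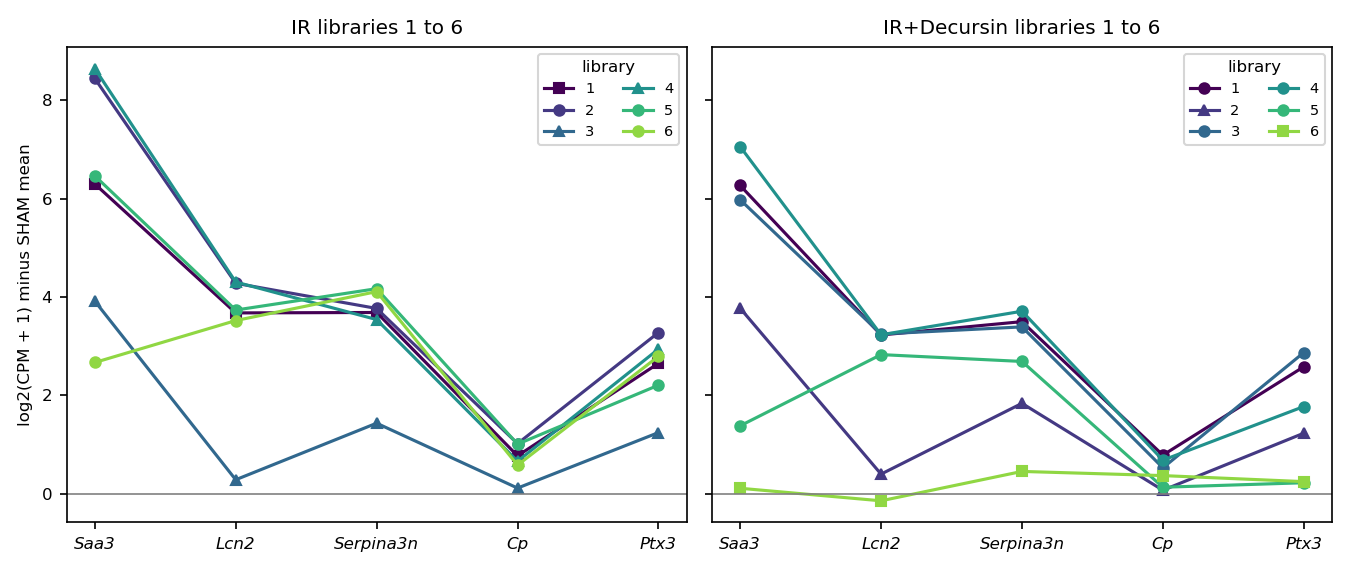
Each line is 1 heart, IR in the left panel and IR+Decursin in the right, and gives log2(CPM + 1) minus the SHAM mean for the 5 genes. The lines cross between Saa3 and Serpina3n: IR 6 is lowest for Saa3 and next to highest for Serpina3n, while IR+Decursin 6 lies within 0.45 of the SHAM mean for every gene but above every SHAM heart for Cp.

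Over the 6 hearts of a group, Pearson's r of log2(CPM + 1) between 2 of the genes was above 0 in all 10 pairs in IR (0.28 to 0.92) and in all 10 pairs in IR+Decursin (0.58 to 0.95). None of these 20 relations passed an exact permutation test after adjustment, with a lowest adjusted p of 0.139 for r and 0.167 for Spearman's rho. As a description, deviations from the group means over all 18 libraries were most alike for Lcn2 and Serpina3n (r = 0.92) and least alike for Saa3 and Serpina3n (r = 0.53). Among 11629 genes with a mean of at least 2 CPM, those whose deviations were most like Saa3 were Cxcl5, a neutrophil chemokine (r = 0.97), Hp, the haemoglobin-binding haptoglobin (r = 0.92), and Slpi, a leukocyte protease inhibitor (r = 0.91). Cxcl5 averaged 0.238, 30.7 and 15.3 CPM in SHAM, IR and IR+Decursin, and Slpi 0.184, 5.545 and 2.595 CPM. For Lcn2 they were Serpina3n, Prg4 (lubricin) and the metalloprotease gene Mmp3, with r of 0.92, 0.88 and 0.86. For Serpina3n they were Srpx, Sod3 (the extracellular superoxide dismutase) and Or5m3b, named as an odorant receptor gene, with r of 0.93, 0.93 and 0.92. For Cp the closest was Il6st, the signalling receptor subunit gp130 of the interleukin-6 family (r = 0.91), followed by Cd28 and Impact (0.88 and 0.86), and for Ptx3 they were Dram1, Emp3 and Rcc1 (0.90, 0.88 and 0.87). These r values ranked genes over shared libraries and carry no test.

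Compared per length in the deposited FPKM values, the order of the 5 genes differed between SHAM and injured hearts. In SHAM the mean was 16.2 FPKM for Cp, 12.3 for Serpina3n, 4.15 for Lcn2, 0.327 for Saa3 and 0.287 for Ptx3. In IR it was 393 FPKM for Saa3, 161 for Serpina3n, 73.1 for Lcn2, 32.9 for Cp and 5.16 for Ptx3, so that Cp, the highest in SHAM, had only Ptx3 below it. In IR+Decursin the order was as in IR, with 115 FPKM for Saa3, 96.0 for Serpina3n, 33.4 for Lcn2, 25.8 for Cp and 2.63 for Ptx3. Most neighbours in these orders overlapped: Saa3 exceeded Serpina3n in 4 of 6 IR hearts and 3 of 6 IR+Decursin hearts, and Cp exceeded Serpina3n in 4 of 6 SHAM hearts. Only Lcn2 over Saa3 in SHAM, and Cp over Ptx3 in IR and in IR+Decursin, were separated by non-overlapping ranges.

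Close relatives of the 5 genes showed which family members the heart libraries held. The other serum amyloid A genes were nearly absent: Saa1 had at most 31 counts in a library, Saa2 at most 2 and Saa4 at most 1, all under the filter, against up to 18337 for Saa3. Reads shared between these similar genes cannot be separated here. Of 10 listed relatives of Serpina3n, 7 had a row and 5 were tested. Of these, 4 rose in IR against SHAM, where 25.2% of all tested genes were higher. A gene that is high in a single group passes the filter, so 4 of 5 is no share of the family. Between IR+Decursin and IR 0 passed the test, and all 5 values were below 0. Serpina3g averaged 0.715, 15.0 and 5.45 CPM in SHAM, IR and IR+Decursin and rose by 4.38 ± 0.61 on the log2 scale in IR (edgeR adjusted p = 3.11e-05). Serpina3f, at 0.205, 4.36 and 1.43 CPM, rose by 4.34 ± 0.71 (edgeR adjusted p = 9.37e-05), Serpina3i by 3.85 (adjusted p = 0.000124) and Serpina3m by 3.91 (adjusted p = 0.00562). Serpina3c did not pass (0.17, edgeR adjusted p = 0.840), Serpina3b and Serpina3k were under the filter, and Serpina3a, Serpina3h and Serpina3j were not analysed here. In IR+Decursin against IR the values were -1.46 for Serpina3g (edgeR adjusted p = 0.166) and -1.59 for Serpina3f (adjusted p = 0.181). These serpins lie in a cluster of similar genes, where the division of reads is uncertain. Heph, the membrane-bound ferroxidase related to Cp, differed by 0.23 (edgeR adjusted p = 0.438), and the pentraxins Crp, Nptx1, Nptx2, Nptxr and Ptx4 had at most 16 counts in a library and were under the filter.

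Many other acute-phase proteins also rose in IR. Of 35 listed, 19 were tested, 14 were higher in IR than in SHAM and 0 lower, with a median log2 difference of 1.38 beside -0.00 over all tested genes, of which 25.2% were higher. The filter passes genes that are high in a single group, so these counts are no share of the whole list. Apoe, the lipid carrier of macrophages, went from 300.2 to 917 CPM (log2 difference 1.61, edgeR adjusted p = 1.41e-05), and Trf, transferrin, from 46.9 to 90.7 CPM (0.95, adjusted p = 3.34e-05). Il1rn, the interleukin-1 receptor antagonist, went from 0.262 to 5.96 CPM (4.50, adjusted p = 6.24e-05), and C3, the central complement component, from 188 to 808.5 CPM (2.11, adjusted p = 6.93e-05). Hp, chosen after its values were seen because it was close to Saa3, went from 2.13 to 139 CPM (6.00, edgeR adjusted p = 0.00132) and stood at 81.3 CPM in IR+Decursin.

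Among 24 listed cytokines and receptors, 21 were tested, 19 were higher in IR and 0 lower, with a median log2 difference of 1.63. Of all tested genes 25.2% were higher, and here too the filter passes genes that are high in a single group. The tumour necrosis factor receptors Tnfrsf1a (0.86, edgeR adjusted p = 3.78e-06) and Tnfrsf1b (1.87, adjusted p = 7.47e-06) rose, as did Il6ra (1.38, adjusted p = 7.61e-06) and Il10ra (1.93, adjusted p = 8.38e-06), which bind interleukin-6 and interleukin-10. The ligand Il6 itself, named after its values were seen, averaged 0.00608 CPM in SHAM, against 2.48 CPM in IR and 1.06 CPM in IR+Decursin. Among 30 transcription factors and feedback genes, 28 were tested, 20 were higher and 0 lower, beside 25.2% higher over all tested genes. The median was 0.60. Cebpa rose from 7.06 to 21.0 CPM (1.57, edgeR adjusted p = 4.90e-06), and Myd88, the adaptor of Toll-like and interleukin-1 receptors, rose by 1.12 (adjusted p = 1.47e-05). Nfkb2, an NF-kappaB subunit, rose by 0.78 (edgeR adjusted p = 1.70e-05) and the AP-1 subunit Fosl1 by 3.58 (adjusted p = 3.75e-05). Cebpb and Cebpd, the C/EBP members best known in the acute phase and named after their values were seen, did not pass (0.02 and 0.32, edgeR adjusted p = 0.962 and 0.402).

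Of 26 receptors and partners of the 5 proteins, 20 were tested, 14 were higher in IR and 0 lower, with a median of 1.33. Over all tested genes 25.2% were higher, and the limit of the filter applies to this list as well. Fcgr2b, an Fc receptor of the kind that pentraxins bind, rose by 2.24 (edgeR adjusted p = 6.48e-06), and C1qa, a chain of the PTX3 ligand C1q, by 1.43 (adjusted p = 1.13e-05). P2rx7, an ATP receptor at which serum amyloid A has been placed, rose by 1.23 (edgeR adjusted p = 1.18e-05), and Itgam, the alpha chain of complement receptor CR3, by 2.67 (adjusted p = 3.75e-05). Slc22a17, a receptor for lipocalin-2 named after its values were seen, rose by 0.71 (edgeR adjusted p = 0.00381), whereas the iron exporter Slc40a1, whose work ceruloplasmin supports, differed by 0.16 (adjusted p = 0.494).

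No gene of these 5 lists was called between IR+Decursin and IR. The median difference was -0.36 for other acute-phase proteins (17 of 19 tested below 0), -0.53 for cytokines and receptors (19 of 21), -0.20 for transcription factors and feedback (24 of 28), -0.33 for receptors and partners (18 of 20) and -1.20 for the serpin A3 relatives, beside -0.02 over all tested genes. Against SHAM, 11, 15, 14 and 10 genes of the first 4 lists were higher in IR+Decursin and 0 lower, where 17.5% of all tested genes were called higher, with medians of 0.95, 1.17, 0.39 and 0.94. IR+Decursin minus IR shares the IR libraries with IR against SHAM, where many genes of these lists were higher. The counts below 0 are therefore not independent of that rise, and the share of all tested genes below 0 is not given. The lists were drawn up with results of these data known, and nothing is claimed as particular to them.

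**Figure D4:**
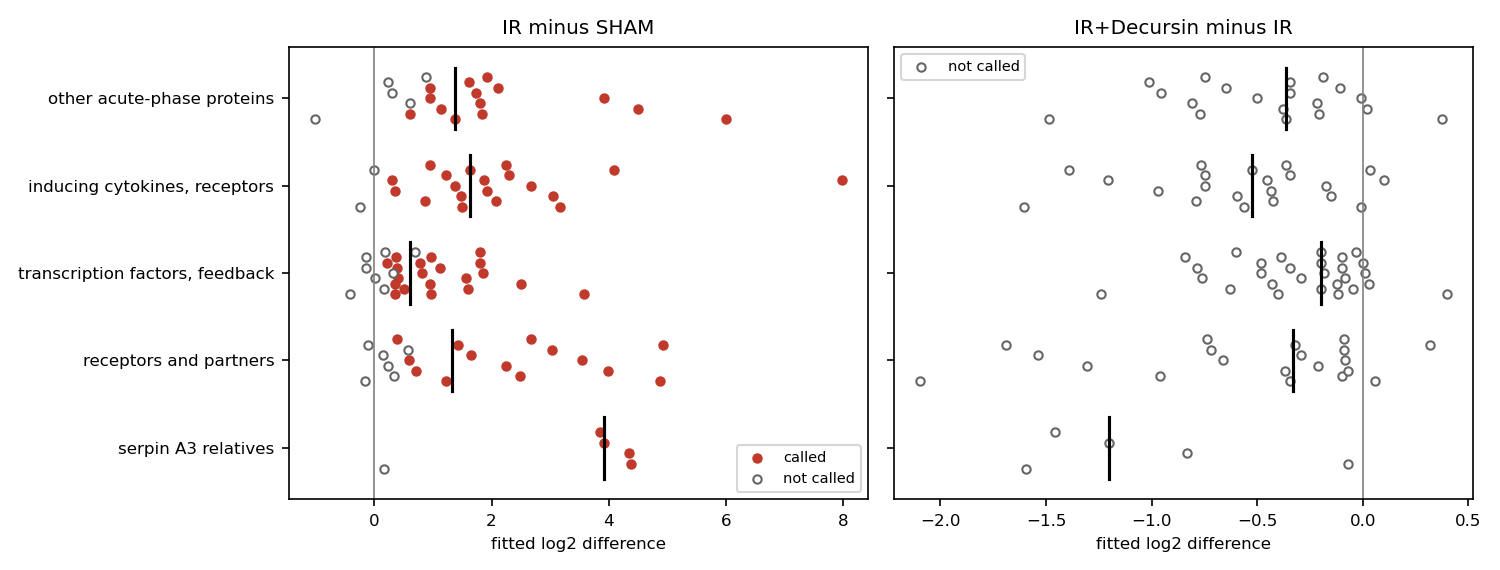
Fitted log2 difference of every tested gene in 5 lists, 1 point per gene, for IR minus SHAM on the left and IR+Decursin minus IR on the right; filled points were called at a false discovery rate under 0.05 and vertical bars are list medians. Filled points occur in the left panel alone, where the 4 higher serpin A3 relatives lie between 3.85 and 4.38.

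Markers of several other cell types moved with the groups, and their part in the differences above was not tested. Beside the counts of called markers below, 25.2% of all tested genes were higher and 21.7% lower in IR than in SHAM. The filter passes markers that are high in a single group. Markers of neutrophils, which store lipocalin-2 in granules, summed to 1.90 to 58.5 CPM in SHAM, 28.7 to 215.0 in IR and 3.81 to 103 in IR+Decursin, and 5 of 8 tested were higher in IR than in SHAM. The granule and surface genes Elane, Camp, Ngp and Ly6g stayed at or under 1, 16, 22 and 18 counts in any library. SHAM 2 and SHAM 5, the highest SHAM hearts for Lcn2, Serpina3n and Cp, also had the highest neutrophil sums in SHAM. These sums were 37.5 and 58.5 CPM against 1.90 to 5.25 in the others. Saa3 and Ptx3 differed from this and were both highest in SHAM 3, at 0.565 and 1.05 CPM. Saa3 stood at 0.292 CPM in SHAM 2 and 0.0651 CPM in SHAM 5, and Ptx3 at 0.62 and 0.488 CPM. Macrophage markers summed to 481 to 670.2, 1492 to 3016 and 687 to 1953 CPM in SHAM, IR and IR+Decursin, with 11 of 12 higher in IR. Monocyte markers, 6 of 6 higher, summed to 31.2 to 42.7, 114 to 266 and 38.6 to 245 CPM. Fibroblast markers summed to 2355 to 2957, 7977 to 10790 and 2869 to 10390 CPM, with 8 of 10 higher and 1 lower, and mesothelial markers to 2.72 to 5.53, 6.00 to 41.6 and 4.01 to 33.0 CPM, with 7 of 8 higher. Cardiomyocyte markers were lower in IR in 10 of 10, at 73960 to 87880 in SHAM, 39970 to 55320 in IR and 46130 to 76670 CPM in IR+Decursin. Endothelial sums overlapped between the groups, at 843 to 1012, 755 to 1069 and 869 to 1064 CPM, with 3 of 10 higher and 2 lower. Tested smooth muscle and pericyte markers were lower in IR in 4 of 8, and adipocyte markers in 1 of 3. Erythroid markers were higher in 2 of 5, and T and NK cell markers in 6 of 6 tested. IR+Decursin 6 lay within the SHAM range for the neutrophil, monocyte, fibroblast and cardiomyocyte sums, at 3.81, 38.6, 2869 and 76670 CPM. Its macrophage sum, 687 CPM, was just above that range. Its mesothelial sum, 10.5 CPM, lay above the SHAM range of 2.72 to 5.53 CPM. Its T and NK cell sum, 3.15 CPM, lay above the SHAM range of 0.912 to 2.42 CPM. IR+Decursin 5 had the next lowest fibroblast sum of its group, 3433.5 CPM. How far injury differed among these hearts was not tested. The mitochondrial share of counts was 28.4% to 32.8% in SHAM, 20.1% to 28.3% in IR and 20.9% to 27.5% in IR+Decursin. No marker of any list was called between IR+Decursin and IR.

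Hepatocyte markers were low and their ranges overlapped between all groups. Their sum over 12 genes was 7.58 to 16.2 CPM in SHAM, 6.14 to 15.8 in IR and 8.90 to 15.6 in IR+Decursin, and of 5 tested 0 were higher in IR and 1 was lower. None of the 12 was at 0 in every library. Alb, the albumin gene, averaged 0.968, 0.605 and 0.986 CPM, and had 2 to 91 counts per library. Ahsg, fetuin-A, averaged 4.50, 6.49 and 6.63 CPM and had 49 to 403 counts, and Cyp2e1, a cytochrome P450, averaged 3.62, 1.55 and 2.34 CPM.

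Within a group, 40 relations between a gene and the neutrophil, macrophage, fibroblast or cardiomyocyte sum were computed on the log2 scale (n = 6). The two-sided exact permutation test used all 720 orders of the hearts, with a smallest possible p of 0.00278 for Spearman's rho. Of the 40 relations, 4 passed on Pearson's r. Lcn2 followed the neutrophil sum in IR (r = 0.93, exact p = 0.00417, adjusted p = 0.0417; rho = 0.94, exact p = 0.0167), with r = 0.83 without the 2 hearts farthest from the median. The largest parts of that sum in IR were Mmp9 and S100a9, with means of 40.8 and 30.8 CPM. Mmp9 was also listed among the partners of the 5 proteins, and no relation was computed without it. In IR+Decursin, Saa3 followed the neutrophil sum (r = 0.96, exact p = 0.00278, adjusted p = 0.0417; rho = 0.94, exact p = 0.0167; r = 0.97 without the 2 farthest). It also followed the fibroblast sum there (r = 0.99, exact p = 0.00417, adjusted p = 0.0417; rho = 0.94, exact p = 0.0167; r = 0.95 without the 2 farthest). In IR its relation to the fibroblast sum did not pass (r = -0.79, exact p = 0.0667, adjusted p = 0.127; rho = -0.71, exact p = 0.136), and the negative r rests on the 2 farthest hearts, without which it was 0.083. Serpina3n followed the macrophage sum in IR+Decursin (r = 0.97, exact p = 0.00417, adjusted p = 0.0417; rho = 0.94, exact p = 0.0167; r = 0.91 without the 2 farthest). The relations to the cardiomyocyte sum had r below 0 for all 5 genes in both groups and none passed, the closest being Serpina3n in IR+Decursin (r = -0.88, exact p = 0.0181, adjusted p = 0.08025; rho = -0.94, exact p = 0.0167; r = -0.93 without the 2 farthest). None of the 40 passed on Spearman's rho, where the lowest adjusted p was 0.133. The 4 pairs that passed on r did not pass in the other injured group. Lcn2 and the neutrophil sum in IR+Decursin had r = 0.82 (exact test, adjusted p = 0.118), or 0.54 without the 2 farthest. In IR, Saa3 and the neutrophil sum had r = 0.75 (exact test, adjusted p = 0.1465), and Serpina3n and the macrophage sum 0.11. In IR+Decursin, Serpina3n with the neutrophil sum (r = 0.95) and Saa3 with the macrophage sum (r = 0.93) had an exact adjusted p of 0.0635. IR 3 had the highest fibroblast sum of all libraries, 10790 CPM, and at the same time the lowest IR levels of Lcn2, Serpina3n, Cp and Ptx3.

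**Figure D5:**
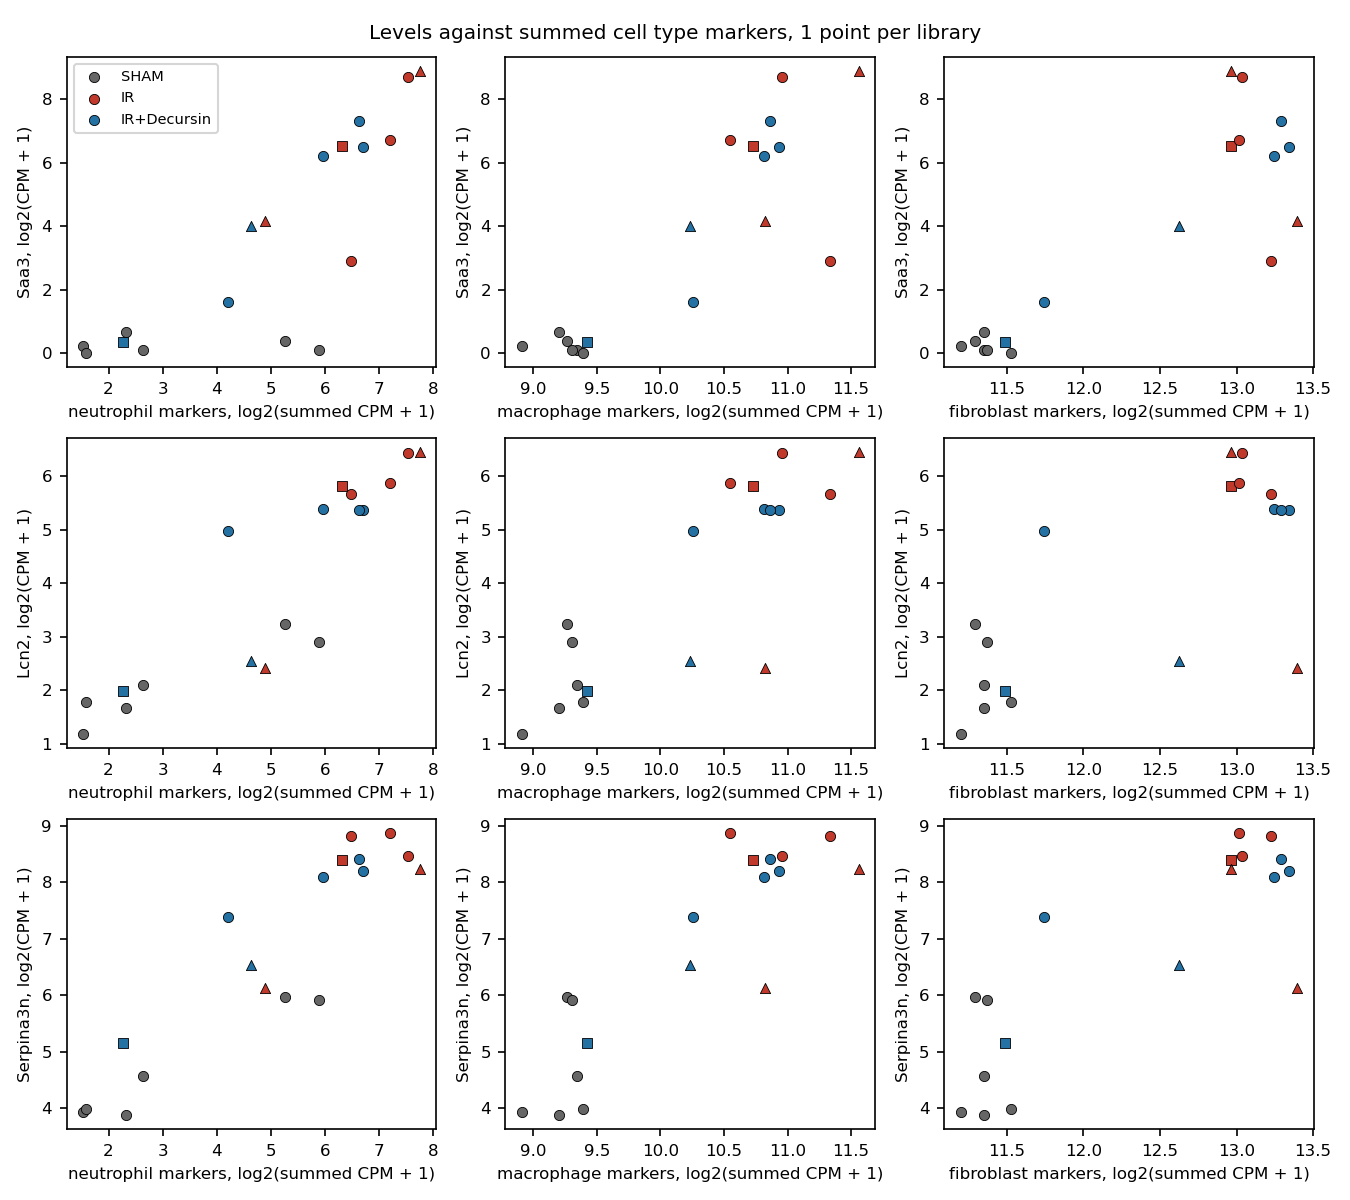
Level of Saa3, Lcn2 and Serpina3n (rows) against the summed neutrophil, macrophage and fibroblast markers (columns), both as log2 with 1 added, 1 point per library; triangles and squares mark the libraries with Xist or Gm26917 counts as in the plot of levels by group. SHAM hearts lie at the left of the macrophage and fibroblast columns, and the IR triangle at the far right of the fibroblast column is IR 3, at 4.37 CPM of Lcn2.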

How the data were processed

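The 5 genes and the gene and marker lists were chosen with earlier results of these data known. Raw counts per gene symbol were deposited by the authors, with FPKM values that equal those counts divided by gene length and library total. Per the submitters' processing notes, fastp, HISAT2, HTSeq and build GRCm39 were used; their versions, the annotation, strand and the treatment of shared reads are not stated. The fit used edgeR 4.0.16 (R 4.3.3): filterByExpr by group (15088 of 25731 symbols), TMM factors, and 1 robust quasi-likelihood fit of the 18 libraries with a mean per group, two-sided, Benjamini-Hochberg over all tested genes, called under 0.05. At 27.5 to 35.0 M counts per library, 95% intervals come from the fit's t quantiles. The steps were tested on simulated data. For the edgeR fit these had the same variability setting in all genes, so they do not cover genes as variable as Saa3. Named genes are the 5, their relatives, up to 4 called genes per list with the smallest adjusted p, and 3 most alike per gene. Correlations used scipy 1.17.1. Alternatives were other scalings and filters, DESeq2 1.42.0, limma 3.58.1 (voom, FPKM), a replicate block and left-out libraries.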

Additional observations from a re-analysis of the deposited data

How the results depend on the processing

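For each of the 5 genes, 32 alternatives were run. In IR+Decursin against IR none reversed a difference and none called a gene: differences ran from -2.45 to -1.16 for Saa3 (adjusted p 0.277 to 0.769), -1.32 to -0.85 for Lcn2 (0.291 to 0.641), -0.95 to -0.49 for Serpina3n (0.386 to 0.744), -0.37 to -0.21 for Cp (0.135 to 0.573) and -1.37 to -0.71 for Ptx3 (0.1857 to 0.6425). Over all genes, that comparison had 0 calls in edgeR (2711 at an unadjusted p under 0.05), 470 in DESeq2, and 0 to 976 with 1 library left out. In IR+Decursin against SHAM, Serpina3n and Ptx3 were called in all 32 alternatives; of the 5 genes, 3 were called with voom weights and 4 to 5 with 1 library left out. On log2(FPKM + 1) the Saa3 difference was 4.78 and that of Ptx3 1.23 there, scales that understate low genes, and without IR+Decursin 4 the Saa3 difference was 7.57; the cause was not tested. Total-count scaling turned the split of calls in IR against SHAM from 3808 higher and 3269 lower to 7004 and 1057, and log2(FPKM + 1) gave 6901 and 1089. In IR+Decursin against SHAM the split went from 2647 and 1774 to 4780 and 377. A fit with a replicate block called 6715, 0 and 3874 genes in the 3 comparisons, and the calls of the 5 genes did not change. Labels give the numbers no shared animal or day, and 3 of 18 same-numbered pairs correlated above 0.1 (-0.52 to 0.41). In both other groups at once, 0 of 18 libraries correlated best with their own number, though some did so in a single group. Counts limit Saa3 in SHAM, at 0 to 14 per library.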
